A study of Homo sapiens and Mus musculus with 22 samples.

Results

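The MYC family and its partners were followed across human and mouse small cell lung cancer (SCLC) lines and sorted fractions with unlike surface levels of MHC class I, the molecules that show peptides to T cells. The 7 genes are MYC, MYCN and MYCL, their dimer partner MAX, and the MAX-binding repressors MXI1, MXD4 and MGA, found by symbol in each of 3 count tables. They are 7 of 25435, 20113 and 24047 genes listed, and the 7 passed the filter on low counts in each table, among 15445, 14819 and 14032 genes tested.

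Proteins of the MYC family bind DNA only as dimers with MAX, at E-box sequences near the start sites of genes for ribosomes, metabolism and the cell cycle. MXI1, MXD4 and MGA also dimerise with MAX and compete for it, and they carry repressors to the same kind of site. MYC, MYCN and MYCL are alternately amplified in SCLC, and MGA is in addition a subunit of PRC1.6, a polycomb complex that silences germline genes.

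H69M, a line derived from the human SCLC line NCI-H69 (H69), is labelled MHC class I high, and H69 itself low or negative. H69M was also sequenced after sorting into a PD-L1 high fraction, labelled high for MHC class I, and a PD-L1 low or negative fraction, labelled low or negative. H69 and unsorted H69M did not go through this sort. When a fraction is compared with either of them, sorting and PD-L1 state cannot be told apart. H69EZ came from H69 after 6 days with an EZH2 inhibitor, which blocks the polycomb enzyme EZH2, then growth without drug and selection of attached cells. It was sorted into HLA-ABC high and low or negative fractions, so both had met the inhibitor. RPP is a mouse SCLC line of source name 631RPP, low or negative for MHC class I, whose genotype the labels do not give. RPP-A was selected from it for attached growth and is labelled high. There were 3 libraries per group and 2 in each H69EZ fraction, 22 in 8 groups. Nothing in the labels tells whether the libraries of a group came from separate cultures, so the p-values reflect spread among libraries, which may be technical. In such bulk samples, fewer cells of a kind and less RNA per cell cannot be told apart.

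Total counts were 14752176 to 21533233 in the PD-L1 high and 13104998 to 21499865 in the PD-L1 low libraries, 19905007 to 25806038 in H69M and 12814594 to 26834561 in H69. They were 40568796 to 52458228 in HLA high, 40758798 to 48192289 in HLA low, 16693491 to 19973785 in RPP-A and 10817795 to 12826799 in RPP. The RPP-A column RPPM3 and the RPP column EHK_RPP4 stood apart from their groups. Their chi-square per degree of freedom against the other columns of the group was 34.3 and 37.2 for RPPM3 and 28.1 and 31.7 for EHK_RPP4. It was 1.33 between RPPM1 and RPPM2, the closest pair of replicates, and 2.22 to 10.5 within groups of the human tables. Levels are CPM, the reads of a gene relative to its library's total with TMM factors applied, means are given with the SD over libraries, and a log2 fold change is given with its standard error. A gene rose or fell where the Benjamini-Hochberg adjusted p of edgeR's quasi-likelihood test over all genes was under 0.05.

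RefSeq promoters on build GRCh38.p14 show where the DNA motifs of the family stand beside its own genes. Each window runs from 250 bases before to 50 after a start site. The search took in 6 of the 7 genes, with 11 windows in all. MYC was left out of the search, so nothing is said here of its promoter. Capitals mark the E-box CACGTG that MYC and MAX bind, and the E2F motifs TTTGGCGC and TTTCGCGC that E2F6 of PRC1.6 shares with cell cycle E2F factors, on both strands. The 3 windows shown are those of MYCN and MYCL, whose levels differ widely between the groups below, and of MXD4, which holds the family's own motif. They lie for MYCN at chr2:15940300-15940599 on the plus strand, for MYCL at chr1:39901868-39902167 on the minus strand and for MXD4 at chr4:2262060-2262359 on the minus strand.
MYCN: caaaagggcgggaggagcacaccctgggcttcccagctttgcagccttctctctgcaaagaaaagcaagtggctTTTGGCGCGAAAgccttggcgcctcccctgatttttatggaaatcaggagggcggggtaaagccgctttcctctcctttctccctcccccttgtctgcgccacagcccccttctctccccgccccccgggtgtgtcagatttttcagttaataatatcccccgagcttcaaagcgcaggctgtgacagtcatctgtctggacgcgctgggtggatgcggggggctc
MYCL: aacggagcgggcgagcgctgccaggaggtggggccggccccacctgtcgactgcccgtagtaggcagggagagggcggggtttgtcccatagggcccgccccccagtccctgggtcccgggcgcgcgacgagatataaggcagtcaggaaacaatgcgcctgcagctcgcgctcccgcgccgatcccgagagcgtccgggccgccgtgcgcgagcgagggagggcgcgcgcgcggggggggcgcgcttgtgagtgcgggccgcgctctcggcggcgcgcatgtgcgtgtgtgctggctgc
MXD4: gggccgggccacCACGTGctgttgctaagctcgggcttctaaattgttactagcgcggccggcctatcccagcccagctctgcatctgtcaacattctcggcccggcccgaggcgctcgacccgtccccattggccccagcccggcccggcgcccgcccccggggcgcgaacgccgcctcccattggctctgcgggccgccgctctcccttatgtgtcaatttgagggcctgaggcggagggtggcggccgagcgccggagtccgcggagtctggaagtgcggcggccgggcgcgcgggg
The MYCN window held 2 overlapping E2F matches, one on each strand, which begin 176 bases before the start site. The MXD4 window held 1 E-box at 238 bases before it. No motif searched was found in the MYCL window. Of the other windows, 1 of the 3 of MGA held 1 E2F match. An E-box stood in 7.26% and an E2F motif in 1.15% of 35116 promoter windows of the same length, and a match is a description of letters, not a bound site.

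MYC was higher in PD-L1 high, H69M, HLA high and RPP-A cells, those labelled high for MHC class I, than in PD-L1 low, H69, HLA low and RPP cells. In the PD-L1 high libraries MYC was at 17.7, 18.1 and 18.01 CPM, against 2.93, 2.37 and 2.39 CPM in the PD-L1 low libraries. H69M had 6.88, 8.01 and 7.19 CPM of MYC, against 3.38, 3.47 and 4.04 CPM in H69. None of these 4 groups overlapped with another, and MYC ran from PD-L1 high through H69M and H69 down to PD-L1 low, which lay below the parent line.

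The fit put MYC 6.91-fold higher in PD-L1 high than in PD-L1 low cells (log2 fold change 2.79 ± 0.11, adjusted p = 7.88e-15, n = 3 each, edgeR). It was 2.06-fold higher in H69M than in H69 (1.04 ± 0.12, adjusted p = 1.02e-07). PD-L1 high cells exceeded H69 by 2.33 ± 0.11 and unsorted H69M by 1.29 ± 0.09 on the log2 scale. MYC in PD-L1 low cells fell by 0.46 on the log2 scale against H69 (adjusted p = 0.00691) and was lower than H69M (-1.503 ± 0.12).

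In H69EZ, MYC was at 72.7 and 74.0 CPM in HLA high, against 5.32 and 5.48 CPM in HLA low, a 13.6-fold difference (log2 fold change 3.77 ± 0.09), whose adjusted p was too small for the software to write. In the mouse, Myc was at 212, 227 and 237 CPM in RPP-A, against 21.8, 13.2 and 9.92 CPM in RPP (3.92 ± 0.27, adjusted p = 5.87e-06, n = 3 each, edgeR). The groups did not overlap in either table, and the RPP value of 21.8 CPM was that of EHK_RPP4. With EHK_RPP4 and RPPM3 left out, the mouse difference was 4.28. There, as in each such run below, RPP-A rested on RPPM1 and RPPM2 alone, the closest pair of replicates.

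MYCN, the paralog of neural and neuroendocrine tumours, went the other way. It was at 439, 436 and 441 CPM in PD-L1 high, against 1521, 1478 and 1454 CPM in PD-L1 low libraries. H69M had 917, 936 and 903 CPM, against 1607, 1514 and 1561 CPM in H69. Only PD-L1 low and H69 overlapped, and in order MYCN ran from H69 and PD-L1 low through H69M to PD-L1 high.

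MYCN was 3.39-fold lower in PD-L1 high than in PD-L1 low cells (log2 fold change -1.76 ± 0.05, adjusted p = 4.98e-18). In H69M it was 1.70-fold lower than in H69 (-0.76 ± 0.04, adjusted p = 4.47e-12). PD-L1 low cells differed from H69 by -0.07 ± 0.04, which did not pass the test (adjusted p = 0.143) and was 0.03 with library totals in place of TMM. PD-L1 high cells were lower than H69 by -1.83 ± 0.05 and than H69M by -1.07 ± 0.04, and PD-L1 low cells were higher than H69M by 0.69 ± 0.04.

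After the EZH2 inhibitor, MYCN was at 376 and 360 CPM in HLA high, against 1200 and 1195 CPM in HLA low libraries (log2 fold change -1.70 ± 0.06, 3.26-fold lower, adjusted p = 9.77e-166). Mouse Mycn was nearly silent in RPP-A, with 4, 4 and 6 reads, against 86, 110 and 77 reads in RPP. On the CPM scale that was 0.292 ± 0.0748 in RPP-A and 6.68 ± 1.14 in RPP (-4.48 ± 0.29, 22.4-fold lower, adjusted p = 4.43e-06), and -4.63 without the 2 columns that stood apart.

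MYCL, the paralog first found in SCLC, was highest in PD-L1 low among the groups of the H69 table. MYCL was at 0.440, 0.694 and 0.703 CPM in PD-L1 high, against 4.56, 3.95 and 3.91 CPM in PD-L1 low libraries. H69M had 0.854, 0.995 and 0.995 CPM, against 0.483, 0.264 and 0.484 CPM in H69, which stand for 19 to 26 reads in H69M and 6 to 12 in H69. PD-L1 low lay above the other 3 groups, and PD-L1 high overlapped with H69.

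MYCL was thus 6.88-fold lower in PD-L1 high than in PD-L1 low cells (log2 fold change -2.78 ± 0.22, adjusted p = 4.21e-10) but 2.39-fold higher in H69M than in H69 (1.26 ± 0.30, adjusted p = 0.00095). PD-L1 low cells exceeded H69 10.4-fold (3.39 ± 0.23, adjusted p = 6.32e-11) and H69M 4.37-fold (2.13 ± 0.19). Against H69, PD-L1 high cells were at 0.60 ± 0.35, which did not pass (adjusted p = 0.133). Against H69M they were at -0.65 ± 0.29 (adjusted p = 0.0482), a call lost in 9 of 13 alternatives, among them without PD-L1 high replicate 1 (adjusted p = 0.203) or 2 (0.0538) or without H69M replicate 1 (0.0521), 2 (0.0943) or 3 (0.11).

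In H69EZ, MYCL was at 1.14 and 0.782 CPM in HLA high, against 4.64 and 4.94 CPM in HLA low libraries (log2 fold change -2.28 ± 0.18, 4.86-fold lower, adjusted p = 1.88e-37). Mycl was the abundant MYC gene of the mouse parent by reads. It was at 33.2, 35.9 and 59.9 CPM in RPP-A, against 289, 287 and 275 CPM in RPP (-2.72 ± 0.23, adjusted p = 1.61e-05), and the RPP-A value of 59.9 CPM was that of RPPM3. Without EHK_RPP4 and RPPM3 the difference was -2.98.

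**Figure D1:**
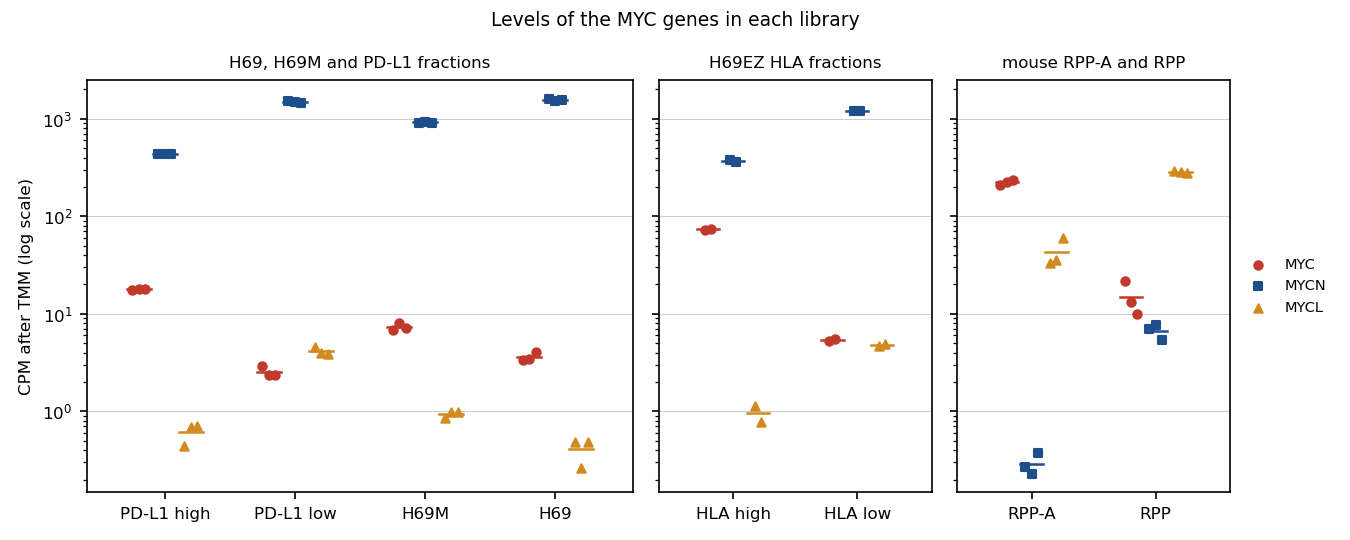
CPM after TMM scaling, on a log axis, of MYC, MYCN and MYCL in each library; points are libraries, short lines are group means. MYC lies higher and MYCN lower in PD-L1 high, HLA high and RPP-A than in PD-L1 low, HLA low and RPP, and MYCL is highest in PD-L1 low within the H69 table.

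The balance of the 3 genes was taken within a library, where scaling drops out. The log2 ratio of MYC to MYCN reads was -4.61 ± 0.02 in PD-L1 high, -9.17 ± 0.14 in PD-L1 low, -6.96 ± 0.10 in H69M and -8.74 ± 0.15 in H69 (SD, n = 3 each). The ratio was 23.6-fold higher in PD-L1 high than in PD-L1 low and 3.43-fold higher in H69M than in H69. It was 44.2-fold higher in HLA high than in HLA low, at -2.32 ± 0.06 against -7.79 ± 0.03 (n = 2 each). In the mouse it was 9.47 ± 0.30 in RPP-A and 1.10 ± 0.46 in RPP.

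MYC over MYCL gave 4.84 ± 0.36 in PD-L1 high, -0.69 ± 0.05 in PD-L1 low, 2.93 ± 0.08 in H69M and 3.11 ± 0.45 in H69. H69M and H69 overlapped in this ratio, with a difference of -0.18 that was 0.07 without H69 replicate 2 (exact permutation p = 0.9 with all libraries). The ratio was 6.26 ± 0.40 in HLA high and 0.17 ± 0.03 in HLA low. In the mouse its sign changed, at 2.44 ± 0.39 in RPP-A and -4.32 ± 0.54 in RPP, so Myc reads outnumbered Mycl reads in the attached line and not in its parent. MYCL over MYCN was lower in PD-L1 high than in PD-L1 low by -0.97 and in HLA high than in HLA low by -0.62. It was higher in H69M than in H69 by 1.96 and in RPP-A than in RPP by 1.62, the opposite sign to the sorts.

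Of the 24 ratios, the exact two-sided permutation test gave 0.1, the smallest p that 3 against 3 libraries allow, for 19 (0.126 adjusted over the 24). It gave 0.333, the smallest that 2 against 2 allow, for the 3 of H69EZ. The exceptions were MYC over MYCL in H69M against H69 and MYCL over MYCN in PD-L1 high against H69M (exact p = 0.3). This test cannot reach 0.05 at these sizes, and the calls per gene rest on the fit over all genes.

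**Figure D2:**
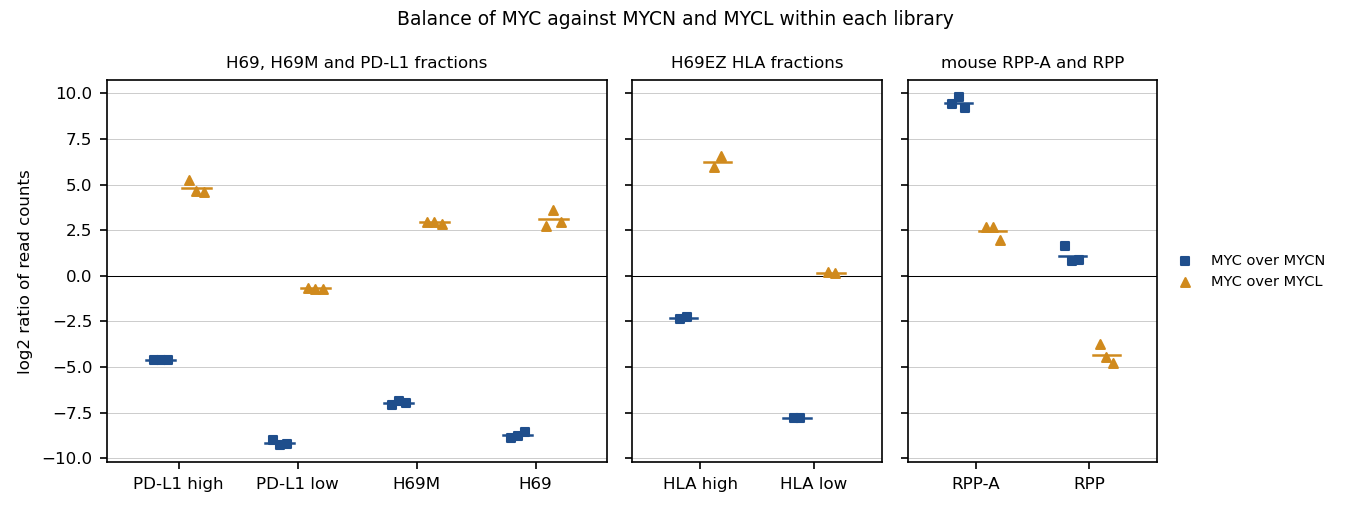
Log2 ratio of read counts (0.5 added to each) of MYC over MYCN and MYC over MYCL in each library; short lines are group means and 0 marks equal reads. The MYC over MYCN ratio is below 0 in each human library and above 0 in each mouse library, and it is higher in PD-L1 high, HLA high and RPP-A than in PD-L1 low, HLA low and RPP.

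Per kilobase of exon (GENCODE release 29 lengths), which allows levels of different genes to be set side by side, MYCN remained the main MYC gene of the human cells. Its share of the summed level of the trio was 96.5% in PD-L1 high, 99.7% in PD-L1 low, 99.3% in H69M and 99.8% in H69. MYC took 3.42% in PD-L1 high, 0.149% in PD-L1 low, 0.689% in H69M and 0.201% in H69. In H69EZ, MYC took 14.7% in HLA high and 0.388% in HLA low, and MYCN 85.1% in HLA high and 99.4% in HLA low. Per kilobase of coding sequence MYC took 16.9% in HLA high and 0.456% in HLA low, and exome capture can favour some genes, so these shares are approximate. Mouse lengths were not used, and of the reads on the 3 mouse genes Myc held 84.1% in RPP-A and 4.85% in RPP, and Mycl 15.8% in RPP-A and 93.0% in RPP.

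MAX, the obligate partner, had the same order of groups as MYC in the H69 table. MAX was at 99.3, 105 and 102 CPM in PD-L1 high, against 52.6, 54.0 and 51.1 CPM in PD-L1 low (log2 fold change 0.96 ± 0.05, 1.95-fold, adjusted p = 1.84e-12, edgeR). It was at 86.3, 80.1 and 77.7 CPM in H69M, against 72.9, 74.3 and 71.5 CPM in H69. The 4 groups did not overlap, but the rise of 0.16 ± 0.05 in H69M against H69 (adjusted p = 0.0131) was not called without H69M replicate 1 (adjusted p = 0.0865). PD-L1 low cells were below H69 by -0.47 ± 0.05 and below H69M by -0.63 ± 0.05, and PD-L1 high cells were above H69 by 0.49 ± 0.05 and above H69M by 0.33 ± 0.05.

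MAX was at 87.7 and 85.4 CPM in HLA high, against 77.8 and 76.2 CPM in HLA low, a log2 fold change of 0.17 ± 0.07 (adjusted p = 0.0161). That call was lost without HLA low replicate 1 (adjusted p = 0.171) or 2 (0.257) and with library totals in place of TMM (0.02, adjusted p = 0.811). Mouse Max was at 69.9, 76.8 and 101 CPM in RPP-A, against 58.3, 54.4 and 53.7 CPM in RPP (0.57 ± 0.14, adjusted p = 0.00681). It was 0.48 without EHK_RPP4 and RPPM3, and 0.21 with library totals (adjusted p = 0.214).

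With MYCN so abundant, the summed level of the 3 MYC genes per kilobase of exon exceeded that of MAX in each human group. The sum over MAX was 7.0 ± 0.24 in PD-L1 high, 44.7 ± 1.25 in PD-L1 low, 17.98 ± 0.95 in H69M and 33.8 ± 1.45 in H69. It was 7.87 ± 0.05 in HLA high and 24.7 ± 0.29 in HLA low. The groups did not overlap, and PD-L1 high cells carried the lowest ratio of the H69 table. The size of this ratio depends on the length used. MAX has 4102 bases of exon but 480 of coding sequence, against 2602 and 1392 for MYCN. Coding lengths would thus give smaller ratios, so the excess over MAX is approximate.

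MXI1, a MAX partner of differentiating cells that antagonises MYC, fell in the high fraction of both human sorts. It was at 14.7, 13.1 and 15.1 CPM in PD-L1 high, against 37.2, 35.7 and 40.1 CPM in PD-L1 low (log2 fold change -1.40 ± 0.07, 2.63-fold lower, adjusted p = 5.39e-13). H69M had 15.3, 15.4 and 14.7 CPM, against 23.8, 24.9 and 25.2 CPM in H69 (-0.70 ± 0.07, adjusted p = 4.07e-08). PD-L1 high and H69M overlapped (-0.09 ± 0.08, adjusted p = 0.344), while PD-L1 low was above H69 by 0.61 ± 0.07.

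MXI1 was also lower in HLA high, at 17.4 and 19.8 CPM, against 50.8 and 54.3 CPM in HLA low (log2 fold change -1.50 ± 0.08, adjusted p = 1.49e-81). In the mouse the groups overlapped, at 88.8, 91.7 and 126 CPM in RPP-A, against 120, 98.9 and 90.6 CPM in RPP. The mouse difference of -0.01 ± 0.17 did not pass (adjusted p = 0.947), and it took either sign as single libraries were left out.

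MXD4, another MAX-binding repressor, was highest in H69 within the H69 table. It was at 38.7, 41.1 and 32.8 CPM in PD-L1 high, against 45.4, 38.8 and 44.8 CPM in PD-L1 low, and at 50.2, 59.6 and 59.0 CPM in H69M, against 73.1, 70.5 and 71.0 CPM in H69. H69M was lower than H69 by -0.35 ± 0.08 (adjusted p = 0.000545), PD-L1 high by -0.93 ± 0.08 and PD-L1 low by -0.74 ± 0.08. The 2 fractions overlapped, and their difference of -0.19 ± 0.08 (adjusted p = 0.0496) was not called in 7 of 14 alternatives, among them without PD-L1 high replicate 3 (adjusted p = 0.143) or PD-L1 low replicate 1 (0.0968) or 3 (0.127). Both fractions were below the unsorted H69M they came from, by -0.58 ± 0.08 in PD-L1 high and -0.39 ± 0.08 in PD-L1 low.

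MXD4 rose in H69EZ and in the mouse. It was at 31.5 and 26.2 CPM in HLA high, against 22.5 and 23.0 CPM in HLA low (log2 fold change 0.35 ± 0.08, adjusted p = 1.59e-05), which was 0.21 without HLA high replicate 1 and 0.20 with library totals. Mouse Mxd4 was at 37.1, 42.8 and 40.0 CPM in RPP-A, against 16.1, 22.2 and 19.6 CPM in RPP, 2.07-fold higher (1.05 ± 0.14, adjusted p = 0.000199, and 0.98 without EHK_RPP4 and RPPM3).

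MGA, the PRC1.6 subunit, did not pass the test between the PD-L1 fractions. It was at 48.8, 51.5 and 49.6 CPM in PD-L1 high, against 49.2, 48.9 and 53.7 CPM in PD-L1 low, and at 51.7, 58.8 and 56.4 CPM in H69M, against 72.5, 65.9 and 72.9 CPM in H69. H69M fell below H69 by -0.34 ± 0.06 (adjusted p = 6.41e-05), and PD-L1 high (-0.49 ± 0.06) and PD-L1 low (-0.48 ± 0.06) did too. Between the fractions it was at -0.01 ± 0.06 (adjusted p = 0.844), a value that was 0.02 with DESeq2 size factors and -0.15, past the threshold, with library totals (adjusted p = 0.0347). Against H69M, PD-L1 high was at -0.16 ± 0.06 (adjusted p = 0.0352, lost without H69M replicate 2, 0.147, or 3, 0.0881), and PD-L1 low was at -0.14 ± 0.06 (adjusted p = 0.0569, called without H69M replicate 1, 0.018, or PD-L1 low replicate 3, 0.0275).

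MGA was at 66.3 and 68.4 CPM in HLA high, against 53.4 and 60.9 CPM in HLA low (log2 fold change 0.24 ± 0.07, adjusted p = 0.000899), a call lost without HLA low replicate 1 (adjusted p = 0.286) and with library totals (0.238). Mouse Mga was at 144, 144 and 84.1 CPM in RPP-A, against 191, 157 and 157 CPM in RPP. The groups did not overlap, but the value of -0.44 ± 0.21 did not pass (adjusted p = 0.088) and it was -0.09 without RPPM3 and EHK_RPP4, the lowest and the highest library.

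**Figure D3:**
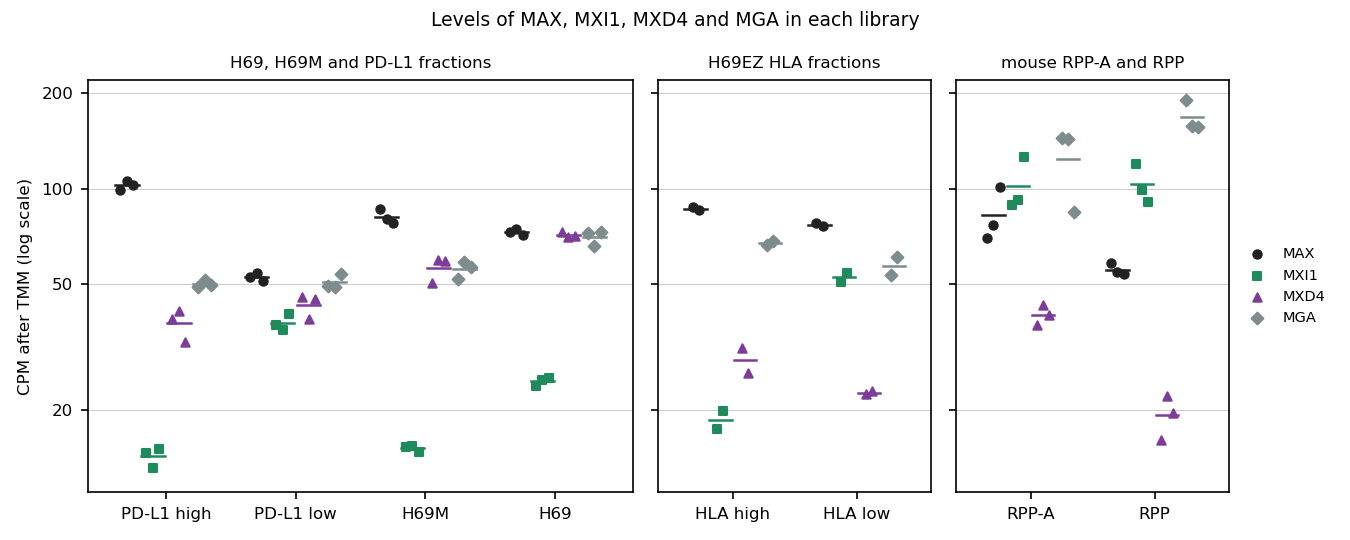
CPM after TMM scaling, on a log axis, of MAX, MXI1, MXD4 and MGA in each library; points are libraries, short lines are group means. MAX is higher and MXI1 lower in PD-L1 high than in PD-L1 low, MXI1 is lower in HLA high than in HLA low, and MXD4 is higher in RPP-A than in RPP.

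Changes were the rule among all genes tested, and the counts of members stand against that. In H69M against H69, 3 members rose and 4 fell, where 72.5% of tested genes were called, and in PD-L1 high against PD-L1 low 2 rose and 4 fell, where 78.3% were called. In PD-L1 low against H69, 2 rose and 4 fell (75.9% of genes called). In PD-L1 high, 2 rose and 4 fell against H69 (77.6%), and 2 rose and 4 fell against H69M (70.4%). In PD-L1 low, 3 rose and 3 fell against H69M (65.6%). In HLA high against HLA low, 4 rose and 3 fell (81.3%), and in RPP-A against RPP 3 rose and 2 fell (78.2%).

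Members whose libraries did not overlap between groups were counted in the same way. In H69M against H69, 3 were higher and 4 lower (36.3% and 36.7% of genes tested, 72.9% in all). In the PD-L1 sort 2 were higher and 3 lower (39.8% and 40.3%, 80.1% in all), and in the HLA sort 4 were higher and 3 lower (45.1% of genes in each direction, 90.2% in all). In RPP-A against RPP 3 were higher and 3 lower (39.7% and 42.5%, 82.3% in all). In PD-L1 low, 2 were higher and 4 lower than in H69 (38.8% and 36.7%, 75.5% in all), and 3 higher and 3 lower than in H69M (35.1% and 34.6%, 69.6% in all). In PD-L1 high, 2 were higher and 4 lower than in H69 (38.3% and 39.6%, 77.9% in all), and 2 higher and 4 lower than in H69M (39.4% and 34.3%, 73.7% in all). In size, a larger change than that of MYC was seen in 9.44% of genes in the PD-L1 sort, 23.4% in H69M against H69, 7.22% in the HLA sort and 19.4% in RPP-A against RPP. For MYCN these shares were 18.2%, 31%, 20.8% and 17.1% in the same order, and for MYCL 9.45%, 19.8%, 15.1% and 25.3%. In the mouse table, 48.1% of all calls were rises, or 35.2% with library totals in place of TMM (5274 rises and 5701 falls, against 3962 rises and 7290 falls with library totals).

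**Figure D4:**
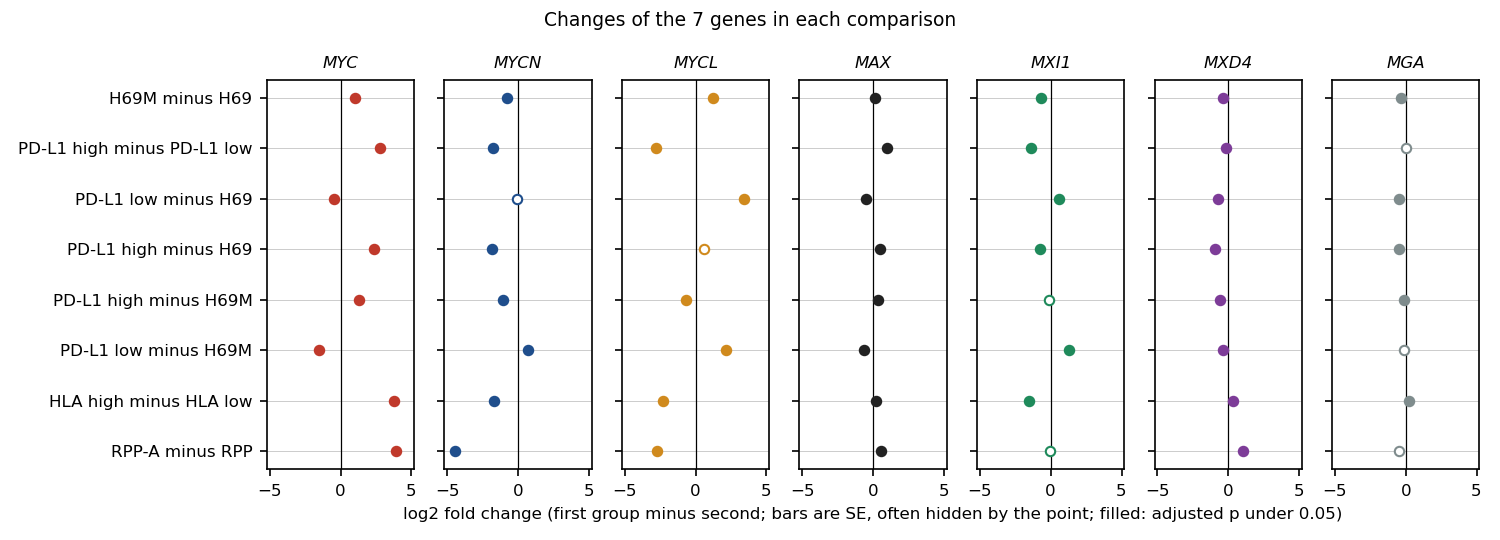
Log2 fold change of each of the 7 genes in the 8 comparisons, as named at the left; bars are the standard error and filled points have an adjusted p under 0.05 over all genes. MYC is right of 0 and MYCN left of it in both sorts, H69M against H69 and RPP-A against RPP, while MYCL is right of 0 in H69M against H69 (1.26) and left of it in the other 3.

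Unsorted H69M lay between its fractions for MYC, MYCN, MYCL, MAX and MXI1. On the way from the PD-L1 low to the PD-L1 high mean, H69M stood at 31.2% for MYC, 54.1% for MYCN, 57.7% for MAX, 90.5% for MYCL and 96.4% for MXI1. The mean of MXD4 and of MGA was higher in unsorted H69M than in either fraction.

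The wider MAX network adds the repressors MXD1, MXD3 and MNT and the MLX branch to the members, 13 genes in all. In PD-L1 high against PD-L1 low, 2 rose and 8 fell, which is 15.4% and 61.5% of the list, where 39.0% and 39.4% of all genes tested rose and fell (median log2 fold change -0.31, against -0.00308 for all genes). Between H69M and H69, 4 rose and 9 fell in H69M (30.8% and 69.2%, against 35.9% and 36.6% of all genes, median -0.35). In HLA high against HLA low the counts were also 4 and 9, against 41.1% and 40.2% of all genes (median -0.55). In RPP-A against RPP, 3 rose and 5 fell (23.1% and 38.5%), and the share that fell was near the 40.6% of all genes (median -0.16, against -0.04). In PD-L1 low against H69M the count ran the other way, with 7 rises and 4 falls (median 0.52, against 0.01), where 32.6% and 33% of all genes rose and fell. The members are part of these counts.

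MLXIPL, a glucose-responsive factor that dimerises with MLX, changed more than the other genes of the list that are not members in the PD-L1 sort, the HLA sort and the mouse. It was at 6.26 ± 1.63 CPM in PD-L1 high and 34.8 ± 5.42 in PD-L1 low (-2.49 ± 0.16, adjusted p = 1.87e-11), and at 2.33 ± 0.50 CPM in HLA high and 33.7 ± 1.81 in HLA low (-3.83 ± 0.11). Mouse Mlxipl had 5, 5 and 0 reads in RPP-A, against 442, 491 and 462 in RPP (-7.31 ± 0.38, adjusted p = 1.25e-06). MLXIPL in H69M rose only by 0.36 ± 0.16 against H69 (adjusted p = 0.0495). MXD1 fell in PD-L1 high (-0.36 ± 0.08) and HLA high (-2.002 ± 0.089) against the low fractions, and Mxd1 in RPP-A against RPP (-1.22 ± 0.14). MXD3 fell in PD-L1 high (-0.70 ± 0.07) and HLA high (-0.53 ± 0.10), and Mxd3 in RPP-A (-1.16 ± 0.12). MNT fell in PD-L1 high (-0.31 ± 0.07) and HLA high (-1.13 ± 0.08), and mouse Mnt was at 0.37 ± 0.16 in RPP-A, which did not pass (adjusted p = 0.0688).

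Regulators and cofactors of MYC proteins moved in both directions. Of 22 genes, 12 rose and 6 fell in PD-L1 high against PD-L1 low (54.5% and 27.3%, against 39.0% and 39.4% of all genes, median 0.20 against -0.00308). Between H69M and H69, 6 rose and 9 fell in H69M (27.3% and 40.9%, against 35.9% and 36.6%, median -0.09 against -0.01). In HLA high against HLA low, 7 rose and 9 fell (31.8% and 40.9%, against 41.1% and 40.2%, median -0.03 against 7.55e-05). Of 21 in the mouse, 6 rose and 7 fell in RPP-A against RPP (28.6% and 33.3%, against 37.6% and 40.6%, median 0.03 against -0.04). The shares that fell in H69M and in HLA high were near those of all genes. BIN1, an adaptor that binds and inhibits MYC, had 409, 368 and 269 reads in PD-L1 high, 88, 67 and 47 in PD-L1 low, 93, 78 and 105 in H69M and 2, 0 and 2 in H69. It rose by 2.49 ± 0.12 in PD-L1 high against PD-L1 low (adjusted p = 1.28e-13), and by 6.21 ± 0.19 in HLA high, where HLA low had 9 reads in each library. Mouse Bin1 rose by 1.74 ± 0.16 in RPP-A.

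AURKA, the kinase that protects MYCN from degradation, was at 0.61 ± 0.06 in H69M against H69 and 0.24 ± 0.06 in PD-L1 high against PD-L1 low, both rises, and at -0.03 ± 0.07 in HLA high (adjusted p = 0.703). FBXW7, the ubiquitin ligase of phosphorylated MYC proteins, fell in PD-L1 high (-0.26 ± 0.07), was at -0.03 ± 0.08 in HLA high (adjusted p = 0.694), and as Fbxw7 fell in RPP-A (-1.08 ± 0.10). CIP2A, listed as KIAA1524, shields MYC from a phosphatase and rose in PD-L1 high (0.73 ± 0.08) and HLA high (0.44 ± 0.08). SKP2, another ligase of MYC, fell in PD-L1 high (-0.42 ± 0.06) and HLA high (-0.75 ± 0.07). PIM1, a kinase that acts with MYC, fell in PD-L1 high (-0.69 ± 0.06) and HLA high (-0.34 ± 0.06), and Pim1 rose in RPP-A (0.35 ± 0.11, adjusted p = 0.0185).

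PRC1.6, the complex that MGA scaffolds, was measured through 14 genes. Of these, 5 rose and 4 fell in PD-L1 high against PD-L1 low (35.7% and 28.6%, against 39.0% and 39.4% of all genes, median 0.03 against -0.00308), shares at or under those of all genes. In H69M against H69, 3 rose and 9 fell (21.4% and 64.3%, against 35.9% and 36.6%, median -0.26). In HLA high against HLA low, 3 rose and 10 fell (21.4% and 71.4%, against 41.1% and 40.2%, median -0.35). In RPP-A against RPP, 3 rose and 7 fell (21.4% and 50%, against 37.6% and 40.6%, median -0.40). E2F6, its DNA-binding E2F factor, fell in PD-L1 high (-0.97 ± 0.09, adjusted p = 5.74e-09), and HLA high (-0.53 ± 0.08), and E2f6 fell in RPP-A (-0.94 ± 0.10). L3MBTL2, a reader subunit, was at 0.64 ± 0.06 in PD-L1 high against PD-L1 low and 0.29 ± 0.07 in HLA high, both rises, and fell in H69M against H69 (-0.97 ± 0.06), and L3mbtl2 fell in RPP-A (-0.62 ± 0.17, adjusted p = 0.0112).

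Germline genes, the known targets of PRC1.6, were scarce. Of 15 listed, 6 passed the filter in the H69 table, 9 in the H69EZ table and 5 in the mouse table. Some passed mainly through the group where they were high. SMC1B had 100 reads in all in PD-L1 low and 3 in PD-L1 high, and TEX101 had 158 in H69. Mouse Stag3 had 1242 in RPP-A and 27 in RPP, and Smc1b 61 in RPP and 4 in RPP-A. The direction of such genes against that group was set by the filter, and the counts below include them. In PD-L1 high against PD-L1 low 5 of the 6 fell and none rose, where 39.4% of all genes fell. In PD-L1 high against H69M, 5 also fell and none rose (median -1.53), where 32.6% of all genes fell. In PD-L1 high against H69, 4 fell and 1 rose (median -1.22), where 39.5% of all genes fell. H69M and PD-L1 low went the other way against H69, and the HLA sort was mixed. In H69M against H69, 3 rose and 1 fell (median 0.39, where 35.9% of all genes rose), and in PD-L1 low against H69 5 rose and 1 fell (39.0% of all genes rose). In HLA high against HLA low, 2 rose, 4 fell and 3 did not pass (40.2% of all genes fell). SYCE2, of the meiotic synaptonemal complex, was at 1.40 ± 0.27 CPM in PD-L1 high and 4.36 ± 0.08 in PD-L1 low. TEX101 had no read in the 3 PD-L1 high libraries, 8, 8 and 3 in PD-L1 low, 5, 5 and 4 in H69M and 56, 68 and 34 in H69. In RPP-A against RPP 4 of 5 fell and 1 rose, Stag3, a meiotic cohesin gene, with 438, 515 and 289 reads in RPP-A, against 11, 7 and 9 in RPP (5.26 ± 0.32, adjusted p = 2.81e-06).

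A list of 60 MYC targets of ribosome biogenesis and growth held more falls than rises in each human comparison. In PD-L1 high against PD-L1 low, 18 rose and 24 fell, or 30% and 40% of the list. Of all genes tested 39.0% rose and 39.4% fell, so the list's share of falls was near that of all genes. The median log2 fold change of the list was -0.03. With library totals in place of TMM, 7 rose and 32 fell.
In H69M against H69, 13 rose and 28 fell (35.9% and 36.6% of all genes), with a median of -0.12. In HLA high against HLA low, 10 rose and 37 fell (41.1% and 40.2%), with a median of -0.28, although the summed level of the 60 was 10370 to 10374 CPM in HLA high and 10141 to 10443 in HLA low. Both fractions stood below H69, with 2 higher and 52 lower in PD-L1 high (38.1% and 39.5% of all genes) and 5 higher and 44 lower in PD-L1 low (39.0% and 36.9%). Against H69M, none rose and 48 fell in PD-L1 high (37.8% and 32.6%), while 8 rose and 40 fell in PD-L1 low (32.6% and 33%). The list's median against unsorted H69M was -0.35 in PD-L1 high and -0.27 in PD-L1 low, so it was below 0 in both fractions. Sorting and PD-L1 state cannot be told apart in these comparisons with H69 and H69M.

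The mouse differed in direction. In RPP-A against RPP, 42 of the 60 rose and 11 fell, where 37.6% of all genes rose and 40.6% fell, with a median of 0.62 against -0.04 for all genes. With library totals in place of TMM, 28 rose and 13 fell, and with EHK_RPP4 and RPPM3 left out 47 rose and 13 fell. Whether the mouse and human lists differ was not tested, since the tables were scaled separately.

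Single targets differed in direction. TERT, the catalytic subunit of telomerase, was at 1.54 ± 0.20 CPM in PD-L1 high and 5.18 ± 0.58 in PD-L1 low (log2 fold change -1.78 ± 0.18, adjusted p = 2.24e-08), and at 1.34 ± 0.06 CPM in HLA high and 5.28 ± 0.14 in HLA low. HK2, a hexokinase of glycolysis, was at 35.6 ± 2.81 CPM in PD-L1 high, 96.1 ± 6.24 in PD-L1 low, 42.5 ± 1.12 in H69M and 9.61 ± 1.47 in H69. UTP20, a ribosome assembly factor, rose in PD-L1 high (1.11 ± 0.05, adjusted p = 9.44e-14) and HLA high (1.40 ± 0.07). SHMT2, an enzyme of mitochondrial serine metabolism, was at 230.0 ± 14.7 CPM in PD-L1 high and 574 ± 22.4 in PD-L1 low (-1.32 ± 0.05). LDHA, lactate dehydrogenase A, rose in HLA high (1.37 ± 0.06).

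In the mouse, Slc19a1, the reduced folate carrier, was at 43.0 ± 7.02 CPM in RPP-A and 10.2 ± 1.13 in RPP (log2 fold change 2.08 ± 0.16, adjusted p = 1.03e-05), and Hspe1, a mitochondrial chaperonin, was at 62.4 ± 4.38 CPM in RPP-A and 18.3 ± 3.6 CPM in RPP. Hk2 had the largest fitted rise (3.17 ± 0.95, adjusted p = 0.0156). Hk2 was at 177, 181 and 158 CPM in RPP-A, against 51.3, 3.12 and 3.797 CPM in RPP, and the value of 51.3 CPM was that of EHK_RPP4. Ung, a uracil repair enzyme, was lower, at 12.02 ± 2.03 CPM in RPP-A and 55.7 ± 6.38 in RPP (-2.21 ± 0.15).

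**Figure D5:**
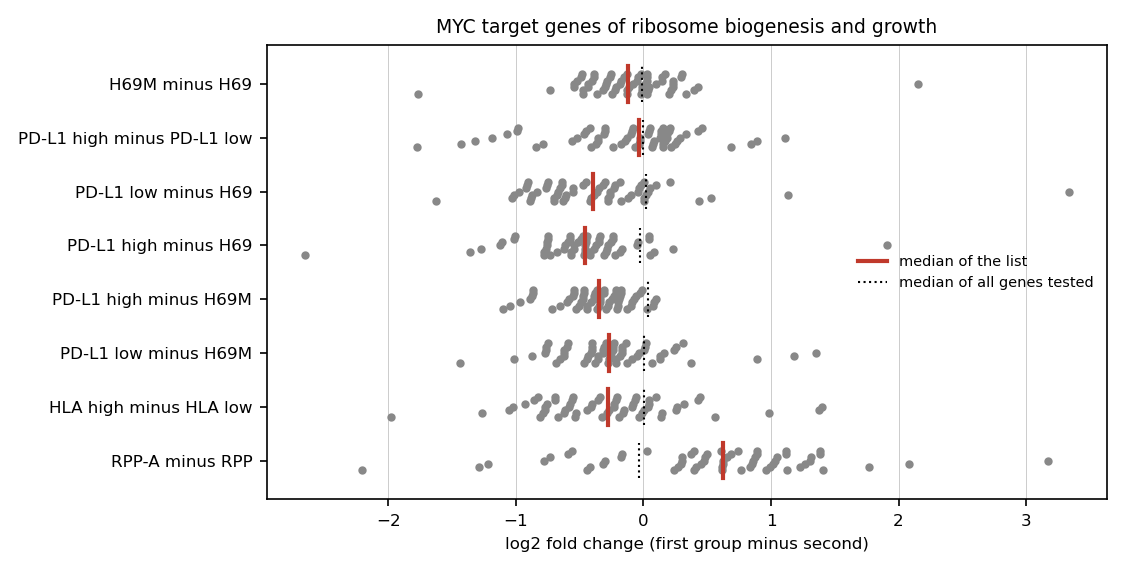
Log2 fold change of 60 MYC targets (grey points) in the 8 comparisons named at the left, with the median of the list (red) and of all genes tested (dotted). The red line lies at or left of the dotted one in the human comparisons and right of it, at 0.62, in RPP-A against RPP.

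Among genes beside the MYC loci, DDX1, often co-amplified with MYCN, was at 149 ± 5.63 CPM in PD-L1 high, 112 ± 9.78 in PD-L1 low, 148 ± 0.76 in H69M and 159 ± 10.3 in H69. DDX1 thus rose in PD-L1 high against PD-L1 low (0.41 ± 0.06, adjusted p = 5.24e-06), and in HLA high (0.48 ± 0.06), where MYCN fell, and it was at -0.10 ± 0.06 in H69M against H69 (adjusted p = 0.148). NBAS, a further neighbour, rose in PD-L1 high (0.32 ± 0.08) and in H69M (0.31 ± 0.08) and fell in HLA high (-0.39 ± 0.07) against HLA low. Of 9 MYCN neighbours, 7 rose and 1 fell in PD-L1 high against PD-L1 low, where 39.0% and 39.4% of all genes did. In HLA high 5 of 8 rose and 2 fell (41.1% and 40.2% of all genes). In the mouse 1 of 7 rose and 5 fell in RPP-A against RPP (37.6% and 40.6% of all genes). MYCNOS, antisense to MYCN, was at 11.9 ± 0.48 CPM in PD-L1 high, 23.8 ± 2.07 in PD-L1 low, 22.1 ± 0.99 in H69M and 60.6 ± 1.38 in H69. No source used here says whether counting used strand, and reads of MYCN and MYCNOS cannot be told apart with certainty.

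Near MYCL, the tRNA-modifying gene TRIT1 fell with it in PD-L1 high (-0.32 ± 0.08) and HLA high (-0.41 ± 0.09), and the lipid transporter gene MFSD2A fell more (-1.21 ± 0.11 and -1.17 ± 0.10). CAP1 and PPT1 rose in PD-L1 high (1.22 ± 0.05 and 0.85 ± 0.06) and HLA high (0.72 ± 0.06 and 0.40 ± 0.07). Of 7 MYCL neighbours tested, 4 rose and 3 fell in PD-L1 high against PD-L1 low, where 39.0% and 39.4% of all genes did. In HLA high 3 rose and 4 fell (41.1% and 40.2% of all genes). Of 8 in the mouse, 3 rose and 2 fell in RPP-A against RPP (37.6% and 40.6% of all genes). PVT1, the noncoding neighbour of MYC, was at 2.33 ± 0.36 CPM in PD-L1 high and 2.39 ± 0.31 in PD-L1 low (adjusted p = 0.848). Mouse Pvt1 was at 21.9 ± 2.15 CPM in RPP-A and 3.36 ± 1.38 in RPP (2.72 ± 0.28, adjusted p = 5.09e-05). Of the MYC neighbours, 1 of 4 rose and 1 fell in PD-L1 high, and 3 of 3 rose in HLA high. In RPP-A 2 of 4 rose and 1 fell, against the shares of all genes given above.

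Across the 12 libraries of the H69 table, likeness was measured as Pearson's r of log2 CPM, as a description, since libraries of a group share their source. The genes most like MYC were TIMP1 (r = 0.9968), ANXA2 (0.9965) and TRIM6 (0.9962). TIMP1, an inhibitor of matrix metalloproteinases, was at 81.9 ± 3.62 CPM in PD-L1 high, 6.14 ± 0.81 in PD-L1 low, 26.0 ± 1.67 in H69M and 10.7 ± 1.09 in H69. Most like MYCN were TRIM47 (0.9973), SYT7 (0.9963), a synaptotagmin of secretory vesicles, and CCDC64 (0.9962). Most like MYCL were the neural adhesion gene L1CAM (0.9852), C6orf123 (0.9845) and HAP1 (0.9842). Among the members, r with MYC was -0.97 for MYCN, 0.93 for MAX, -0.90 for MXI1 and -0.50 for MYCL.

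Markers of cell state moved with the MYC genes. The summed level of 6 neuroendocrine markers was 1066 to 1121 CPM in PD-L1 high, 3904 to 4128 in PD-L1 low, 2714 to 2798 in H69M and 2777 to 2954 in H69. It was 549.6 to 570.4 CPM in HLA high and 1894 to 1909 in HLA low, and 151 to 191 CPM in RPP-A and 2327 to 2869.9 in RPP. All 6 were lower in PD-L1 high against PD-L1 low and in RPP-A against RPP, and 5 of 6 were lower in HLA high, while in H69M against H69 2 rose and 3 fell. NEUROD1 was near 0 in the human groups, at 0 in PD-L1 high and 0.881 CPM in H69. In the H69 table it passed the filter through H69, with 57 reads in all. Its fall between the PD-L1 fractions rests on 4 reads in PD-L1 low and says little.

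All 6 non-neuroendocrine markers tested rose in PD-L1 high against PD-L1 low, in H69M against H69 and in HLA high against HLA low, and all 5 tested rose in RPP-A against RPP. YAP1, VIM, AXL and CAV1 had 0, 6, 1 and 6 reads in all in H69, and 4, 13, 9 and 9 in HLA low. REST had 1 read in H69. These genes passed the filter through other groups, so against H69 or HLA low their direction was set by the filter. In PD-L1 low against H69, where MYC fell, 5 of the 6 also rose and CD44 fell. There VIM was at 23.7 ± 8.88 CPM in PD-L1 low and 0.0898 ± 0.0947 in H69, and CD44 at 38.0 ± 4.08 CPM in PD-L1 low and 84.3 ± 6.08 in H69, so their summed level is mostly CD44 in H69. The sum of the 6 was 3417 to 3492 CPM in PD-L1 high, 59.6 to 92.4 in PD-L1 low, 916 to 954 in H69M and 80.8 to 91.5 in H69. It was 2715 to 2799.8 CPM in HLA high and 32.8 to 32.9 in HLA low, and 3984 to 4273 CPM in RPP-A and 31.2 to 145 in RPP. The part of this cell state in the MYC values was not tested.

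Of markers of cells other than tumour cells, 6 of 6 fibroblast genes, which mesenchymal tumour cells also express, rose in each of PD-L1 high against PD-L1 low, H69M against H69, HLA high against HLA low and RPP-A against RPP. Their sum was 11082 to 11376 CPM in PD-L1 high, 242 to 339 in PD-L1 low, 2485 to 2775 in H69M and 147 to 151 in H69. It was 16312 to 17747 CPM in HLA high and 94.0 to 96.9 in HLA low, and 22557 to 30203 CPM in RPP-A and 80.3 to 437 in RPP. Of the 6, 1 had no read in HLA low and 1 had none in RPP, so there its direction was set by the filter. The part of the fibroblast genes in the MYC values was not tested. Leukocyte markers summed to 7.83 to 9.13 CPM in PD-L1 high, 1.77 to 2.48 in PD-L1 low, 3.596 to 4.32 in H69M, 3.36 to 4.06 in H69, 5.76 to 6.29 in HLA high, 4.22 to 4.94 in HLA low, 32.5 to 36.4 in RPP-A and 1.96 to 3.09 in RPP, with CD3E at 0 in each group. Cd14 made up most of the RPP-A sum, at 32.2 ± 1.90 CPM in RPP-A and 0.307 ± 0.252 in RPP. Endothelial markers summed to at most 6.05 CPM in a human library and to 2.12 to 3.33 CPM in RPP-A and 39.5 to 46.8 in RPP.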

How the data were processed

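Per the labels' protocols, total RNA (250 ng) gave exome capture libraries sequenced on a NextSeq 500. The deposited tables hold raw read counts per gene. STAR 2.6.1 and builds hg19 and mm10 are named in the submitters' processing notes; the sources used here give no counting program, annotation or strand setting. All 22 libraries were used. Mouse columns were assigned by group only, since they carry no replicate numbers of the labels.

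Each table was fitted alone with edgeR 4.0.16 in R 4.3.3 (TMM, filterByExpr minimum count 10, quasi-likelihood F-test, two-sided, threshold 0.05), with 1 coefficient per group. For H69EZ, residual degrees of freedom were 2, and the spread was pooled across genes. The script was tested on simulated counts. Ratios of counts used a pseudocount of 0.5. Lengths are from GENCODE 29, and no gene coordinates other than RefSeq promoter windows are given. CIP2A was matched as KIAA1524.

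Members, lists and tests were chosen with earlier results of these data known. Named were the 7 members, genes of the network, regulator, PRC1.6 and neighbour lists, up to 3 rises and 3 falls per comparison of the target, germline and marker lists, and the 3 genes most like each MYC gene; CD3E, NEUROD1 and Cd14 were also named, after their values were seen. Alternatives were DESeq2 1.42.0 size factors and test, limma-voom (limma 3.58.1), library totals, no filter or a minimum count of 100, only the groups compared, a replicate block and each library left out. Leaving out EHK_RPP4 and RPPM3, summing RPPM1 and RPPM2, the target counts under alternatives and the difference between contrasts were added after the data were seen.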

Additional observations from a re-analysis of the deposited data

Results flagged for a closer look

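MYCL was higher in H69M against H69 and lower in the high fraction of both sorts and in RPP-A. Its log2 fold change was 1.26 in H69M against H69, but -2.78 in PD-L1 high against PD-L1 low, -2.28 in HLA high against HLA low and -2.72 in RPP-A against RPP, and in each of these the libraries of the groups did not overlap. Both PD-L1 fractions come from H69M. Against H69, MYCL was at 3.39 in PD-L1 low and at 0.60 in PD-L1 high, which did not pass (edgeR adjusted p = 0.133). The rise in H69M rests on 65 reads in all, against 25 in H69. MXD4 was at -0.35 in H69M against H69, but at 0.35 in HLA high against HLA low and 1.05 in RPP-A against RPP. MGA was at -0.34 in H69M against H69 and 0.24 in HLA high against HLA low. Differences across tables were not tested, since the tables were scaled separately.

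Within the H69 table the difference between PD-L1 high against PD-L1 low and H69M against H69 was tested as a contrast in the same fit, which was added after the data were seen. It was -4.04 ± 0.38 for MYCL on the log2 scale (edgeR adjusted p = 8.69e-09), 1.75 ± 0.17 for MYC (1.58e-08) and -0.995 ± 0.062 for MYCN (1.97e-11). It was 0.81 ± 0.08 for MAX (adjusted p = 9.9e-09), -0.70 ± 0.10 for MXI1 (5.7e-06) and 0.32 ± 0.09 for MGA (0.00317). For MXD4 it was 0.16 ± 0.12, which did not pass (adjusted p = 0.225). The PD-L1 fractions are the ends of a sort of H69M, which lay between them for MYC, MYCN, MYCL, MAX and MXI1. A difference between these contrasts is thus likely for any gene that parts the fractions, and it does not compare separate models.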

How the results depend on the processing

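MYC, MYCN and MYCL kept direction and call in each alternative run for H69M against H69, the PD-L1 sort, the HLA sort and RPP-A against RPP, and MYC ranged there from 0.98 to 1.10, 2.65 to 2.87, 3.61 to 3.79 and 3.55 to 4.33 in that order. Of 755 member values under alternatives, 711 kept direction and side of the threshold, 28 lost the call, 7 gained it and 9 changed sign, none of them called. Those were MGA in the PD-L1 sort (0.0216 with DESeq2 size factors and with the DESeq2 test, and -0.0726 to 0.0267 with single libraries left out), MYCN in PD-L1 low against H69 (0.0275 with library totals), and Mxi1 in RPP-A against RPP (0.0059 with no filter, 0.15 without EHK_RPP4, 0.0857 without RPPM1, 0.068 without RPPM2, 0.0929 with RPPM1 and RPPM2 summed). The ratio of MYC to MYCL in H69M against H69, at -0.18, was 0.12 with a pseudocount of 5 and -0.363 to 0.0709 with single libraries left out; the cause was not tested. The count of genes called was 0.832 to 1.14 times that reported. Library totals without TMM moved the median of all genes from -0.04 to -0.41 (log2) in RPP-A against RPP, to -0.15 in the HLA sort and to -0.14 in the PD-L1 sort, and Mga in RPP-A was then called (-0.81, adjusted p = 0.00775). They left 7 MYC targets higher in the PD-L1 sort in place of 18, and 9 in PD-L1 low against H69 in place of 5. With RPPM1 and RPPM2 summed, 7 fell in RPP-A in place of 11. With a minimum count of 100, MYCL of the H69 table or Mycn of the mouse was not tested in some comparisons.

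Deviations of same-numbered libraries correlated only weakly, at -0.164 to 0.0946 in the H69 table and 0.0379 in the H69EZ table. In PD-L1 high against H69M they were 0.0324 to 0.0758, each above the highest with another number (-0.0213 to -0.00335). In no other comparison of the H69 table did this hold for every number. With 2 libraries per fraction, the H69EZ values mirror each other and cannot test pairing by replicate number. With the number as a replicate block, 10915 genes were called in H69M against H69, 11923 in the PD-L1 sort and 12031 in the HLA sort, and MXD4 in the PD-L1 sort (adjusted p = 0.0694) and MYCL (0.0679) and MGA (0.0516) in PD-L1 high against H69M were not called. No block was possible in the mouse table. Depth limits MYCL in H69 (6 to 12 reads) and Mycn in RPP-A (4 to 6 reads).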
